A study of Mus musculus with 13 samples.

Results

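Interferon gamma and its nearest signalling partners were followed as 9 genes: the cytokine (Ifng), the 2 chains of its receptor (Ifngr1 and Ifngr2), a transcription factor, an inhibitor and an enzyme that it induces (Irf1, Socs1 and Ido1), a pair of chemokines that it induces (Cxcl9 and Cxcl10), and the receptor of those chemokines (Cxcr3). The 9 genes were picked by symbol, with earlier results of these data known. All 9 were found among the 22609 genes of each of the 2 deposited tables. RNA had been sequenced from whole tissue of C57BL/6 mice. The first tissue was the E0771 tumour, a mouse mammary cancer line transplanted into wild-type (WT) hosts (n = 3) or into hosts labelled as knockout for PD-L1 in fat only (KO, n = 3). The other was visceral fat taken after feeding with HFD, a high-fat diet, with 3 WT and 4 KO libraries. The targeting belongs to the host, so the transplanted tumour cells were the same line in both groups. The driver of the deletion, the age of the mice and the number of animals behind each library are not given in the sources used here. The p-values therefore measure the spread between these libraries, which may be technical.

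The tumour libraries held 22834259 to 34706555 reads in genes, and the fat libraries 29362788 to 41534662. Cd274, the gene of PD-L1, had a mean of 544 ± 17.6 (SD, n = 4) in fat labelled KO against 590.2 ± 129 (SD, n = 3) in WT fat. It was thus not clearly lower in KO fat, so every direction rests on the labels. Among 6 epithelial markers the keratin gene Krt8 read 8441 to 10313 in the tumours, while Krt18, Krt7, Krt19, Epcam and Cdh1 stayed at or below 205 in each tumour. Fat expressed Adipoq, the gene of the adipocyte hormone adiponectin, at 26767 ± 5873 (KO; SD, n = 4) and 114654 ± 13459 (WT; SD, n = 3). The WT fat columns are numbered 1, 3 and 4 and are named by those numbers. The tables were normalised separately, so levels are not set side by side across tissues. In whole tissue, fewer cells of a type and less RNA per cell cannot be told apart.

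Interferon gamma is made mainly by activated T cells and natural killer (NK) cells. It binds a receptor of 2 chains, IFNGR1 and IFNGR2, whose kinases JAK1 and JAK2 start the signal to the nucleus. Target promoters carry gamma-activated sites (GAS), and the induced factor IRF1 binds interferon-stimulated response elements (ISRE). In tumours the induced chemokines CXCL9 and CXCL10 attract T cells that carry CXCR3, and in fat of obese animals interferon gamma acts on macrophages and adipocytes.

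Cxcl9 and Cxcl10 lie side by side on chromosome 5 (GRCm38, GENCODE M21), 18.6 kb apart and both on the minus strand: Cxcl9 at chr5:92321347-92328079 and Cxcl10 at chr5:92346638-92348889. Their promoters are shown because the 2 chemokines had different patterns across the tumours, together with the promoters of Irf1, the induced factor, and Socs1, the induced inhibitor. Each stretch is the 250 bases before the RefSeq start of the gene (GRCm38.p6), written 5′ to 3′ on the strand of the gene, and capitals mark each match to a GAS core, TTCNNNGAA, or an ISRE core, which is GAAA, any 2 bases and GAAA again, searched on both strands. The windows are chr5:92328080-92328329 (minus strand) for Cxcl9, chr5:92348890-92349139 (minus strand) for Cxcl10, chr11:53769764-53770013 (plus strand) for Irf1 and chr16:10785537-10785786 (minus strand) for Socs1.
Cxcl9: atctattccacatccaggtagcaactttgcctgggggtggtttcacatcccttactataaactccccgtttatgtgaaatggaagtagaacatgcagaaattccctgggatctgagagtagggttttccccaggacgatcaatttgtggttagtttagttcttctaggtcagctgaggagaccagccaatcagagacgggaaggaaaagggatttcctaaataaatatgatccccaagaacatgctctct
Cxcl10: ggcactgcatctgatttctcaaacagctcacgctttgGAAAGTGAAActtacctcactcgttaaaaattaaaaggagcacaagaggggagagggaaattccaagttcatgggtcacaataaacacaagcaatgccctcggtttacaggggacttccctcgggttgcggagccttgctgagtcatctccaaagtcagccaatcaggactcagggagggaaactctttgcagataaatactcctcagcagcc
Irf1: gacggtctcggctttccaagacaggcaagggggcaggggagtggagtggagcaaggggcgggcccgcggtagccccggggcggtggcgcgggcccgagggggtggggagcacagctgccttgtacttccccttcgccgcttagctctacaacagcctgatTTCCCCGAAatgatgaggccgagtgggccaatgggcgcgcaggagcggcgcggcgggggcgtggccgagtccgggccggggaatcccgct
Socs1: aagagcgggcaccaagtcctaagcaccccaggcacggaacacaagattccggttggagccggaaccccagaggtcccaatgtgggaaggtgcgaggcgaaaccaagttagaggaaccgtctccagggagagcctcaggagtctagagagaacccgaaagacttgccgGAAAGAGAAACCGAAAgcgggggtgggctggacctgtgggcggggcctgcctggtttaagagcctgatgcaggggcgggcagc

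The Cxcl10 window held 1 ISRE core, GAAAGTGAAA, 213 to 204 bases before the start, and the Cxcl9 window held no match to either core. The Irf1 window held 1 GAS core, TTCCCCGAA, 90 to 82 bases before the start. The window of another RefSeq start of Irf1, chr11:53770223-53770472, is not printed and had no match to either core. Socs1 had 2 ISRE cores that share bases, GAAAGAGAAA and GAAACCGAAA, 83 to 68 bases before the start. Of the 9 genes 8 had a promoter entry, all except Ido1. Among those not printed, Ifng had 1 GAS core, 249 to 241 bases before its start, and Ifngr1, Ifngr2 and Cxcr3 had no match to either core. Of 32851 windows of the same length, 7.02% held a GAS core and 2.98% an ISRE core. A match describes letters only. A window without a match may still hold sites with other letters, so it says nothing about binding within it or elsewhere.

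In the tumours Cxcl9 and Irf1 stood higher in every KO host than in any WT host, while Cxcl10, Socs1, Ido1 and both receptor chains overlapped between groups. Mean Cxcl9 in KO tumours was 1.97 times that in WT tumours by the fitted fold, and mean Irf1 1.49 times. None of the 9 genes passed edgeR's quasi-likelihood test with Benjamini-Hochberg adjustment at 0.05, and 0% of the 13109 tested genes did. At an unadjusted p under 0.05, 4 of the 9 genes were higher and 0 lower, against 3.79% and 3.11% of all genes. DESeq2 called 2 of the 9, Cxcl9 and Irf1, both higher, where it called 0.378% of 12427 genes higher. The 2 genes without overlap, both higher in KO, compare with 5.68% of all tested genes that lay higher and 4.93% that lay lower without overlap.

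In fat only Ifngr2 passed, and it was higher in KO, at 1.89 times the WT level. That was 1 of 8 tested genes, where 16.8% of 14455 genes rose and 17.4% fell in limma, 34.2% in all. edgeR on the reads recovered from the fat values also called 1 of the 8, where 33.9% of all genes passed. It was also the one gene without overlap, where 21.6% of genes lay higher and 22.1% lower without overlap, 43.7% in all. Cxcl9 and Irf1, the 2 genes without overlap in tumours, overlapped between the fat groups, as did Cxcl10. The median log2 fold change, KO minus WT (LFC), of the 9 genes was 0.10 in tumours and that of the 8 tested genes -0.17 in fat, and the median over all tested genes was 0.00368 and -0.000497.

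**Figure D1:**
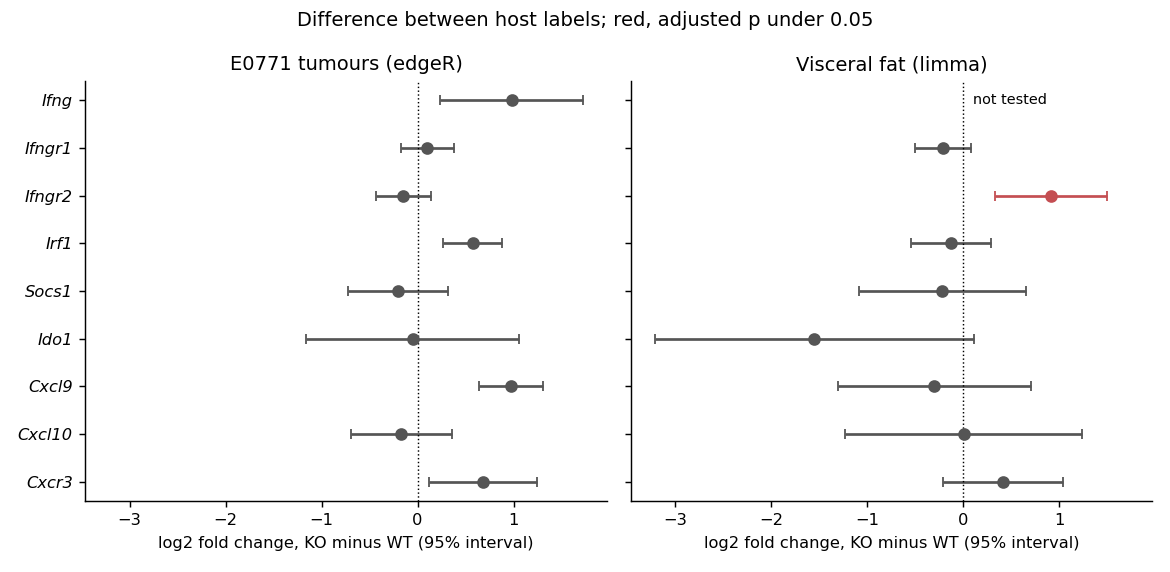
Log2 fold change (KO minus WT, horizontal axis) of each gene in tumours (left, edgeR, n = 3 and 3) and fat (right, limma, n = 4 and 3). Points are estimates and bars 95% confidence intervals; the single red point is Ifngr2 in fat at 0.92, and Cxcl9 in tumours stands at 0.98 with an interval clear of 0 but an adjusted p of 0.204.

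Ifng (chr10:118441046-118445892, plus strand, 3 exon blocks after merging the exons of all transcripts, as for the other genes) encodes the cytokine itself. It shares 336 of its 1295 exon bases with Gm49751 on the same strand. How shared reads were counted is not given in the sources used here. The TMM-normalised reads of Ifng, counts rescaled to a common effective library size, were 353, 868 and 392 in KO tumours and 200, 231 and 382 in WT tumours. KO replicate 2 was far above the rest, and WT replicate 3 lay between KO replicates 1 and 3, so the groups overlapped. The means were 538 ± 287 (SD, n = 3) and 271 ± 97.4 (SD, n = 3), with an LFC of 0.98 (SE 0.34) and an adjusted p of 0.646 in edgeR. Without KO replicate 2 the LFC was 0.46. DESeq2 gave an adjusted p of 0.167, which fell below the threshold without KO replicate 1 (0.0333) or without WT replicate 3 (0.00684). Those were the lowest KO and the highest WT tumour.

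T cell markers moved with Ifng across the tumours, and NK cell markers did so among the KO tumours. The summed level of 8 T cell markers was 6313, 13086 and 7433 in KO tumours and 4737, 4949 and 6594 in WT tumours, with KO replicate 2 again the highest and WT replicate 3 between KO replicates 1 and 3. Of these 8 markers 7 had LFCs above 0 and none passed edgeR. The 6 NK cell markers summed to 2912, 5025 and 3227 in KO and 2409, 2674 and 2656 in WT. They thus lacked the rise that Ifng had in WT replicate 3. Ifng per unit of Cd3e, a chain of the T cell receptor complex, was 0.740, 0.831 and 0.690 in KO and 0.685, 0.692 and 0.722 in WT. The groups overlapped, and the log2 ratio differed by 0.10 (two-sided exact permutation p = 0.3, where 0.1 is the smallest that 20 relabellings allow).

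In fat Ifng was close to the limit of detection. The libraries held 9, 10, 8 and 1 reads in KO and 8, 6 and 0 in WT, the last of which allows up to 3 reads. These are deposited normalised values of 9.93, 10.8, 7.26 and 1.01 against 6.88, 5.87 and 0. Ifng therefore missed the minimum of 10 in at least 3 libraries and was not tested in fat; a difference was not detectable at this depth (exact permutation p = 0.457).

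**Figure D2:**
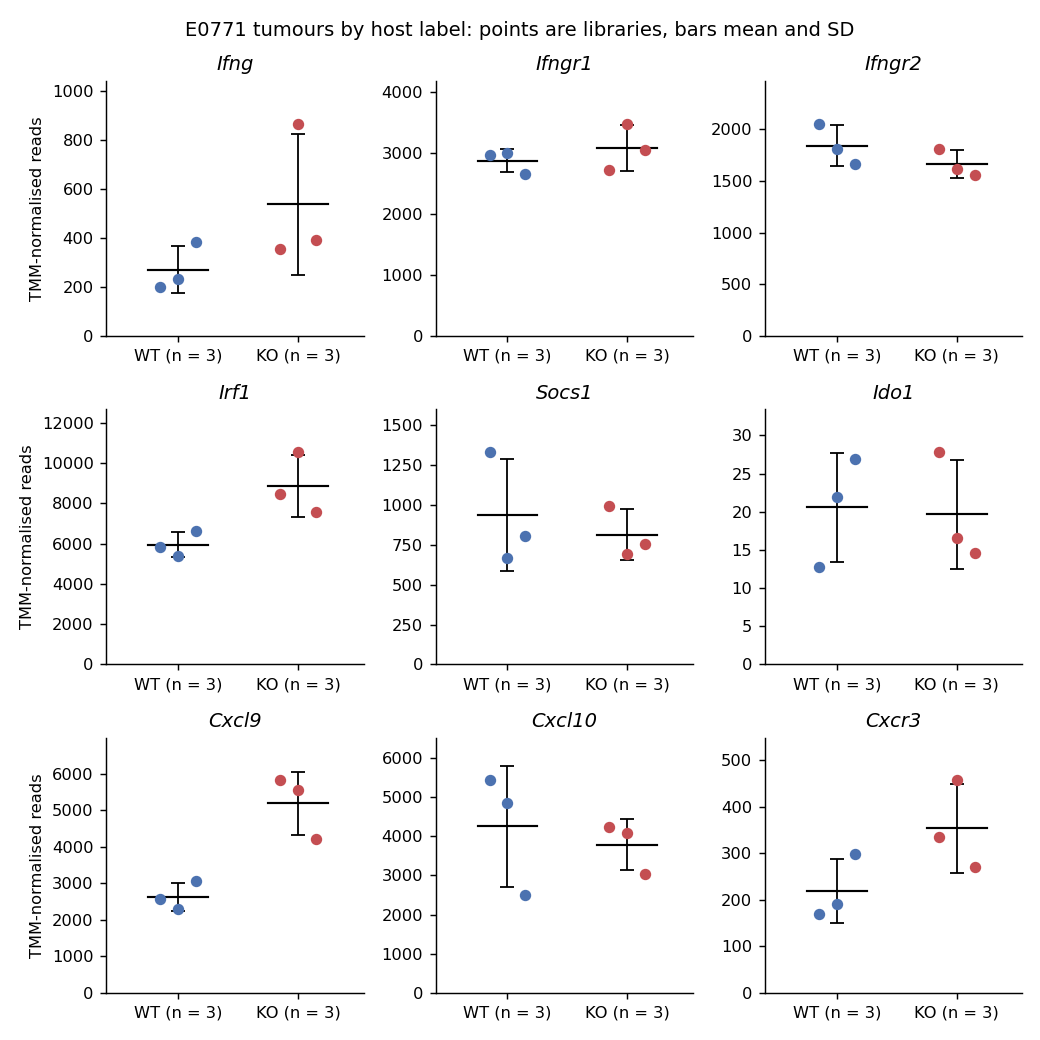
TMM-normalised reads (vertical axes, separate scale per gene, starting at 0) of the 9 genes in E0771 tumours by host label. Points are libraries, bars mean and SD, n = 3 per group; Cxcl9 and Irf1 are the 2 panels in which all KO points lie above all WT points.

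Ifngr1 (chr10:19591949-19610229, plus strand, 8 exon blocks) encodes the chain that binds the cytokine. Tumour levels were 2730.1, 3485 and 3048 in KO and 2963, 3004 and 2663 in WT, a narrow and overlapping range. The LFC was 0.10 (SE 0.13, 95% interval -0.18 to 0.38, edgeR adjusted p = 0.898). In fat, where Ifngr1 was the highest of the 9 genes per kilobase of exon in both groups, values were 9025, 7915, 8172 and 8567 in KO and 8336, 10323 and 10612 in WT. WT columns 3 and 4 stood above every KO library and WT column 1 lay inside the KO range. The LFC was -0.21 (SE 0.13, limma adjusted p = 0.243).

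Ifngr2 (chr16:91547072-91565623, plus strand, 8 exon blocks) encodes the signalling chain, which recruits JAK2. In fat its values were 3616, 3189, 2756 and 3204 in KO and 2542, 1716 and 1086 in WT. All 4 KO libraries exceeded all 3 WT libraries, and the WT libraries spread more widely, with WT column 4 the lowest. Means were 3191 ± 351 (SD, n = 4) and 1781 ± 730.4 (SD, n = 3), and Ifngr2 rose in KO with an LFC of 0.92 (SE 0.25, 95% interval 0.34 to 1.50, limma adjusted p = 0.0241). Fold changes in fat are differences of mean log2(value + 1). edgeR on the recovered reads gave 0.85 and an adjusted p of 0.0342. The call ended without KO replicate 1, 2 or 4 (adjusted p = 0.0568, 0.0580 and 0.0546) or without WT column 3 (0.0700), and without WT column 4 the LFC was 0.60 (adjusted p = 0.0429).

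Macrophage markers moved with Ifngr2 in fat. All 7 measured macrophage markers rose in KO fat, with a median LFC of 1.85, against 16.8% of all genes. Their summed level was 210090 to 306958 in KO and 118690, 68119 and 41210 in WT columns 1, 3 and 4, the same order of WT libraries as for Ifngr2. All 6 adipocyte markers fell, with a median LFC of -1.61. The part of these marker changes in the Ifngr2 result was not tested. Tumour Ifngr2 levels were 1814, 1618 and 1559 in KO and 2058, 1807 and 1666 in WT, overlapping and without a call (LFC -0.15, SE 0.13, edgeR adjusted p = 0.855).

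The balance of the 2 receptor chains within a library does not depend on its scaling. In fat the ratio of Ifngr1 to Ifngr2 reads was 2.50, 2.48, 2.97 and 2.67 in KO and 3.28, 6.01 and 9.77 in WT. Every KO ratio lay below every WT ratio, and the WT libraries ranged widely. The mean log2 ratio was 1.40 ± 0.120 (KO; SD, n = 4) against 2.53 ± 0.789 (WT; SD, n = 3), lower by a log2 difference of -1.13 (two-sided exact permutation p = 0.0286, the smallest that 35 relabellings allow). Tumour ratios were 1.51, 2.15 and 1.95 in KO and 1.44, 1.66 and 1.60 in WT (log2 difference 0.24, exact permutation p = 0.3). These are 2 of 8 ratio comparisons, with unadjusted p-values.

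**Figure D3:**
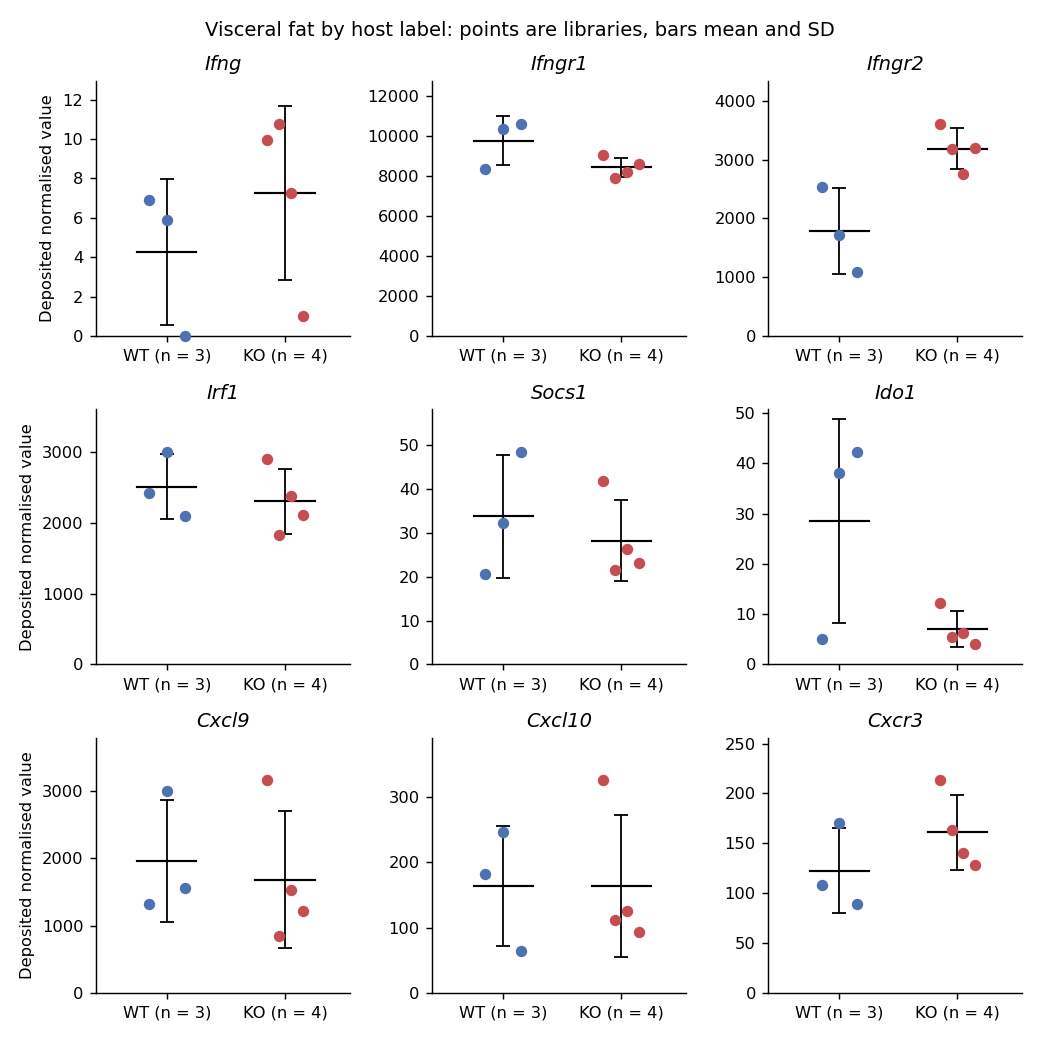
Deposited normalised values (vertical axes, separate scale per gene, starting at 0) of the 9 genes in visceral fat by host label. Points are libraries, bars mean and SD, n = 4 KO and 3 WT; Ifngr2 is the panel in which all KO points lie above all WT points, and Ido1 has 2 high WT points at 38.2 and 42.3.

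Irf1 (chr11:53770014-53778374, plus strand) encodes interferon regulatory factor 1. It shares 135 exon bases with Gm17334 on the opposite strand, and the strand setting of the counting is not given in the sources used here. Tumour levels were 8459, 10542 and 7551 in KO and 5813, 5387 and 6643 in WT. Every KO tumour exceeded every WT tumour, with KO replicate 2 the highest. Means were 8851 ± 1534 (SD, n = 3) and 5947 ± 639 (SD, n = 3), an LFC of 0.57 (SE 0.14). The adjusted p was 0.446 in edgeR and 0.0488 in DESeq2, and the exact permutation p was 0.1, the smallest possible. Leaving out KO replicate 1, KO replicate 2, WT replicate 1 or WT replicate 2 ended the DESeq2 call (adjusted p = 0.0546, 0.573, 0.463 and 0.774), and it held in the other 2 such fits.

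In fat Irf1 values of 2909, 1831, 2386 and 2104 in KO overlapped those of 2426, 3001 and 2095 in WT (LFC -0.13, SE 0.18, limma adjusted p = 0.629). The tumour effect minus the fat effect was 0.69 on the log2 scale (two-sided exact permutation of host labels within tissues, p = 0.0486, 700 relabellings). For Ifngr2 the same difference was -1.06 (exact permutation p = 0.00571). The other 6 genes compared this way had exact permutation p-values of 0.0686 (Cxcl9, difference 1.27) to 0.907 (Socs1, 0.06), and all 8 are unadjusted. Relabelling within tissues assumes no effect in either tissue, so a small p-value does not by itself show that the effects differ between tissues. The Irf1 difference ranged from 0.55 to 0.81 when each library was left out in turn, with p-values of 0.02 to 0.127.

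Socs1 (chr16:10782240-10785536, minus strand, 2 exon blocks) encodes a suppressor that blocks JAK kinases downstream of the receptor. Tumour levels were 992, 689 and 753 in KO and 1332, 668 and 808 in WT, so replicate 1 was the highest in both groups and the groups overlapped. The LFC was -0.20 (SE 0.24, edgeR adjusted p = 0.889). Fat values were low, at 41.9, 21.6, 26.3 and 23.2 in KO and 20.6, 32.3 and 48.5 in WT (LFC -0.22, SE 0.38, limma adjusted p = 0.690).

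Ido1 (chr8:24584136-24597009, minus strand, 11 exon blocks) encodes indoleamine 2,3-dioxygenase, which starts the breakdown of tryptophan to kynurenine. It was the lowest of the 9 genes per kilobase in tumours, at 27.8, 16.6 and 14.6 normalised reads in KO and 12.8, 22.0 and 27.0 in WT. Those ranges nearly coincide, and the interval of the LFC of -0.05 (edgeR adjusted p = 0.991) ran from -1.16 to 1.06. Fat values were 12.1, 5.39, 6.36 and 4.03 in KO and 5.16, 38.2 and 42.3 in WT. WT columns 3 and 4 were far above all KO libraries, and WT column 1 lay among them. The LFC was -1.55 (SE 0.73, limma adjusted p = 0.133), and without WT column 1 it was -2.46 (adjusted p = 0.00825).

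Cxcl9 encodes the chemokine also called MIG, which depends closely on interferon gamma. Tumour levels were 5813, 5541 and 4208 in KO and 2565, 2294 and 3052 in WT. The lowest KO tumour, replicate 3, exceeded the highest WT tumour, also replicate 3. Means were 5187 ± 859 (SD, n = 3) and 2637 ± 384 (SD, n = 3), an LFC of 0.98 (SE 0.15, 95% interval 0.64 to 1.31). The adjusted p was 0.204 in edgeR, 1.04e-05 in DESeq2, and 0.00435 in edgeR without the filter on low counts. In edgeR it passed without KO replicate 3 (0.0386) or without WT replicate 3 (0.0350), the lowest KO and the highest WT tumour. It did not pass edgeR without any other single library, with adjusted p up to 0.9998. In DESeq2 it passed in all 6 fits without 1 library, with adjusted p up to 0.0140. In the same tumours the 6 mast cell markers summed to 3194 to 10753 in KO and 917 to 2039 in WT, without overlap. The 6 NK cell markers were also higher without overlap (2912 to 5025 against 2409 to 2674). The 5 B cell markers were lower in KO without overlap (185 to 269 against 277 to 309). The 7 macrophage markers overlapped (39171 to 53488 against 40471 to 48894). The part of these cell markers in the Cxcl9 values was not tested.

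Cxcl10 encodes the chemokine IP-10, which other interferons induce as well. Its levels were 4247, 4077 and 3037 in KO tumours and 5428, 4851 and 2505 in WT tumours. WT replicates 1 and 2 stood above every KO tumour and WT replicate 3 below, so the groups overlapped. The LFC was -0.17 (SE 0.24, 95% interval -0.69 to 0.35, edgeR adjusted p = 0.911). Cxcl10 shares 133 exon bases with Art3, which lies across it on the opposite strand. Art3 read 5.10 to 34.5 in tumours, and in fat 1052 to 2503 in KO and 4598 to 9294 in WT.

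Within each tumour the ratio of Cxcl9 to Cxcl10 was 1.37, 1.36 and 1.39 in KO hosts and 0.473, 0.473 and 1.22 in WT hosts. The 3 KO ratios were nearly equal, and all lay above the WT ratios, of which replicate 3 was the nearest. The mean log2 ratio was 0.46 ± 0.014 (KO; SD, n = 3) against -0.63 ± 0.788 (WT; SD, n = 3). The difference was 1.08, with a two-sided exact permutation p of 0.1, the smallest that 3 against 3 allow.

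In fat Cxcl9 values were 3157, 843, 1529.9 and 1211 in KO and 1328, 2993 and 1554 in WT. Cxcl10 values were 326, 112, 125 and 92.7 in KO and 182, 247 and 65.0 in WT. KO replicate 1 was the highest KO library for both chemokines and WT column 3 the highest WT library, and both genes overlapped between groups. The limma LFCs were -0.30 (SE 0.44, adjusted p = 0.630) for Cxcl9 and 0.01 (SE 0.54, adjusted p = 0.993) for Cxcl10. Their ratio in fat differed by -0.31 on the log2 scale (exact permutation p = 0.629). KO replicate 1 was the highest KO fat library in 8 of the 9 genes, all except Ifng.

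**Figure D4:**
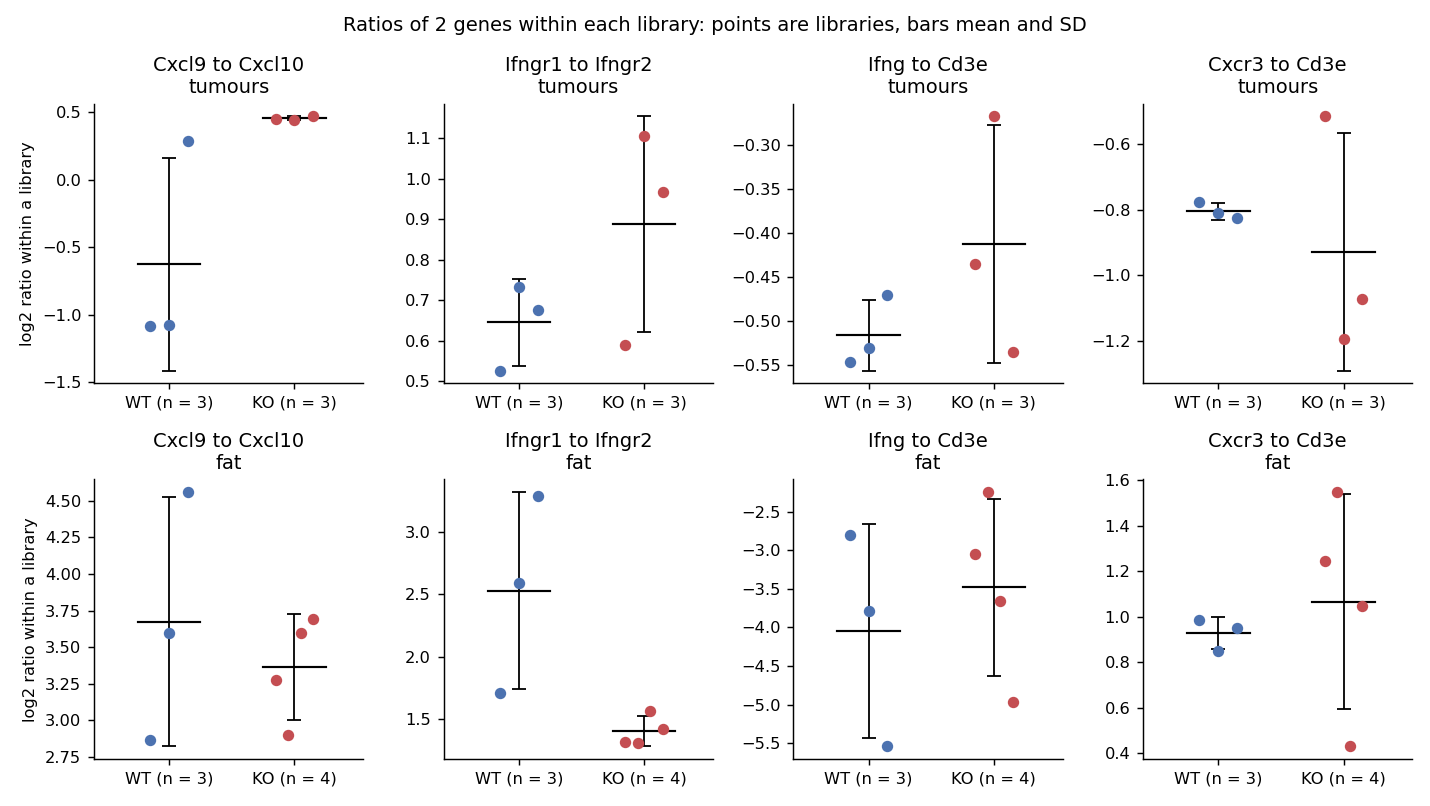
Log2 ratio of 2 genes within each library (vertical axes, separate scale per panel) in tumours (top) and fat (bottom) by host label. Points are libraries, bars mean and SD; KO and WT points are separate for Cxcl9 to Cxcl10 in tumours, where the KO points cluster near 0.46, and for Ifngr1 to Ifngr2 in fat, and overlap in the other panels.

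Cxcr3 (chrX:101731535-101734269, minus strand, 2 exon blocks) encodes the receptor of both chemokines on T cells and NK cells. Tumour levels were 334, 456 and 269 in KO and 170.4, 190.0 and 298 in WT. KO replicate 3 lay below WT replicate 3, so the groups overlapped. The LFC was 0.68 (SE 0.26, edgeR adjusted p = 0.676), and DESeq2 gave 0.403, which became 0.0224 without WT replicate 3, the highest WT tumour. With each library left out in turn, the edgeR LFC ranged from 0.46 to 0.97 and the adjusted p from 0.155 to 0.9998. Per unit of Cd3e, Cxcr3 was 0.699, 0.437 and 0.475 in KO and 0.584, 0.570 and 0.564 in WT (log2 difference -0.12, exact permutation p = 0.6). The part of the T cell markers in the Cxcr3 values was not tested further.

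In fat Cxcr3 values were 213, 163, 139.8 and 128 in KO and 108, 170.2 and 88.7 in WT. WT column 3 lay inside the KO range and the other WT columns below it (LFC 0.42, SE 0.27, limma adjusted p = 0.267). Per unit of Cd3e the log2 ratio differed by 0.14 (exact permutation p = 0.629). T cell markers in fat summed to 2167 to 2795 in KO and 1494 to 3018 in WT. Thy1 made up most of that sum, with means of 1672 (KO) and 1783 (WT). Of the 8 markers 2 rose and 6 did not pass, where 16.8% of all fat genes rose. The 2 were Cd8a (LFC 1.24, limma adjusted p = 0.0346) and Cd8b1 (LFC 0.92, adjusted p = 0.0458). Their part in the Cxcr3 values was not tested.

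Per kilobase of annotated exon, the order of the mean levels of the 9 genes differed between the tumour groups, though the leading genes overlapped in both. In KO tumours Irf1 was highest, at 2226 ± 386 (SD, n = 3), followed by Cxcl9 at 1719.96 ± 285 and Cxcl10 at 1682 ± 291, and each overlapped the next. In WT tumours Cxcl10 led at 1892 ± 687, with Irf1 at 1496 ± 161, Ifngr1 at 1010.4 ± 65.3 and Cxcl9 at 874 ± 127. There Cxcl10 (1112 to 2410) overlapped Irf1 (1355 to 1671), and Ifngr1 overlapped Cxcl9. In KO fat Ifngr1 at 2957 ± 170.1 (SD, n = 4) was followed by Ifngr2 at 847 ± 93.3, and in WT fat Ifngr1 at 3427 ± 435 (SD, n = 3) by Cxcl9 at 649 ± 299.5, which overlapped Irf1. Exon length here merges the exons of all annotated transcripts. For Cxcl10 that is 1 block of 2252 bases, the whole span of the gene, so its level per kilobase may be understated. The order of the genes thus depends on the annotation as well. No test was made between genes.

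The wider pathway was described with lists fixed by name. Of 16 genes of receptor signalling, none passed in tumours and 15 had LFCs above 0, with a median of 0.14. Usp18, a brake on type I interferon signalling, was the 1 gene below 0, at -0.62 (SE 0.31, edgeR adjusted p = 0.755). Ciita, which switches on class II antigen genes, had 0.53 (SE 0.26, adjusted p = 0.755).

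In fat 5 of the 16 signalling genes rose, 1 fell and 10 did not pass, with a median of 0.24. The 6 calls among 16 are a share near the 34.2% of all fat genes that passed, so the count is not a result about the list. The phosphatase gene Ptpn6, which encodes SHP-1 of blood cells, rose from 1698 ± 1137 (SD, n = 3) to 5515 ± 76.2 (SD, n = 4), an LFC of 1.94 (SE 0.39, limma adjusted p = 0.00708). Pias1, a SUMO ligase that restrains cytokine signalling, rose by 0.56 (SE 0.12, adjusted p = 0.00913). Irf8, Irf2 and Ptpn2, named after their values were seen, completed the rises at 1.25, 0.60 and 0.43. edgeR on recovered reads did not call Irf8 (adjusted p = 0.0558). In WT columns 1, 3 and 4 Ptpn6 read 2934, 1462 and 698 and Irf8 2832, 1765 and 732, the same order as the summed macrophage markers, all 7 of which rose with a median LFC of 1.85. The part of those markers in the signalling genes was not tested. Ptpn11, the phosphatase SHP-2, fell from 12211 ± 714 to 6653 ± 848, an LFC of -0.88 (SE 0.14, adjusted p = 0.00240). Without WT column 3, 2 of the signalling genes rose.

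Genes that lead to interferon gamma production gave no call in tumours (0 of 13 tested). Il12rb1, a chain of the interleukin-12 receptor, averaged 1272 ± 199 in KO and 932 ± 77.3 in WT (LFC 0.45, SE 0.15, edgeR adjusted p = 0.627). Tbx21, the T-bet factor of type 1 T cells, had 0.67 (SE 0.24, adjusted p = 0.669). In fat 1 of 12 tested passed, a smaller share than the 34.2% of all fat genes. Ebi3, a subunit of interleukin-27 and interleukin-35, rose from 102 ± 37.4 (SD, n = 3) to 321 ± 53.5 (SD, n = 4), an LFC of 1.69 (SE 0.26, limma adjusted p = 0.00230).

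Of 20 targets of interferon gamma, among them Ciita of the signalling list, 19 had LFCs above 0 in tumours and none passed edgeR. Their median was 0.37, 8 of the 20 lay higher in KO without overlap (5.68% of all tested genes did) and 11 were higher at an unadjusted p under 0.05 (3.79% of all). DESeq2 called 2 of them higher, where it called 0.378% of all genes higher. Gbp2, a guanylate-binding protein of cell-intrinsic defence, averaged 13535 ± 2311 in KO and 7898 ± 682 in WT (SD, n = 3 each; LFC 0.78, SE 0.14, edgeR adjusted p = 0.204, DESeq2 5.06e-04). Igtp, an immunity-related GTPase, had 8799.9 ± 919.9 and 6087 ± 70.9 (LFC 0.53, SE 0.11, edgeR adjusted p = 0.354, DESeq2 0.0145). Irgm1, of the same GTPase family, had 0.49 (SE 0.12, edgeR adjusted p = 0.446). T cell and NK cell markers were higher on average in the same tumours, and their part in these values was not tested. Guanylate-binding proteins resemble each other, so reads may be split between them.

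In fat 5 of the 20 targets fell, none rose and 15 did not pass, with a median of -0.24. Of all fat genes 17.4% fell and 16.8% rose, 34.2% in all, so calls were no more frequent among the targets than among all genes. Gbp7 fell from 2772 ± 847 (SD, n = 3) to 1237 ± 134 (SD, n = 4), an LFC of -1.13 (SE 0.19, limma adjusted p = 0.00339). Gbp3 and Gbp5 fell by 1.05 each (adjusted p = 0.0122 and 0.0209). Nos2, the inducible nitric oxide synthase, and Wars, a tryptophan tRNA synthetase, were named after their values were seen and fell by 1.43 and 0.39. Wars was not called by edgeR on recovered reads (adjusted p = 0.0503). Without KO replicate 2 or without WT column 3 only 2 of the 20 fell. In the same fat libraries all 6 endothelial markers fell, with a median LFC of -0.99, beside the rise of macrophage markers and the fall of adipocyte markers given above. The part of these marker changes in the target genes was not tested.

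**Figure D5:**
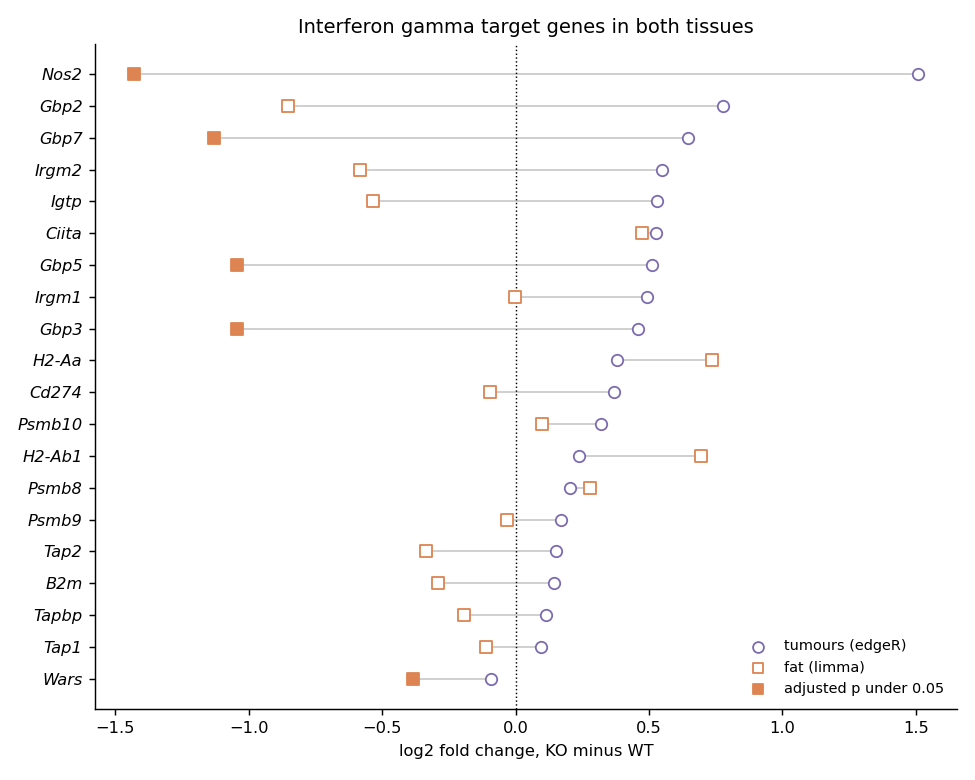
Log2 fold change, KO minus WT (horizontal axis), of 20 interferon gamma targets in tumours (circles, edgeR) and fat (squares, limma); filled squares passed an adjusted p of 0.05. In tumours 19 of the 20 circles lie right of 0, and the 5 filled squares in fat lie left of 0.

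Other molecules around CXCR3 were measured as a list of 6, of which 5 were in the tables. Cxcl11, another CXCR3 ligand gene next to Cxcl10, is annotated as a polymorphic pseudogene, meaning that some strains carry a disrupted copy. It read 146 to 168 in KO tumours and 69.7 to 342 in WT tumours (LFC -0.39, edgeR adjusted p = 0.878) and no more than 1.96 in any fat library. In fat 4 of the list were tested and 3 passed, where 34.2% of all fat genes did. Cxcl16, a chemokine of another receptor, CXCR6, rose from 809 ± 183 (SD, n = 3) to 2193 ± 234 (SD, n = 4), an LFC of 1.46 (SE 0.17, limma adjusted p = 0.00112). Pf4, which encodes platelet factor 4, rose by 1.08 (SE 0.19, adjusted p = 0.00405). Dpp4, the peptidase that trims and inactivates CXCR3 ligands, fell from 1854 ± 64.6 to 1061 ± 238, an LFC of -0.83 (SE 0.18, adjusted p = 0.00894). The macrophage markers that rose and the adipocyte and endothelial markers that fell were measured in the same libraries, and their part in these 3 genes was not tested.

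The kynurenine pathway around Ido1 had 9 tested genes in each tissue. None passed in tumours. In fat 2 rose and 1 fell, a share near the 34.2% of all fat genes. Qprt, which carries the pathway on to NAD, rose from 32.1 ± 6.72 (SD, n = 3) to 109 ± 30.6 (SD, n = 4), an LFC of 1.71 (SE 0.29, limma adjusted p = 0.00347). Afmid, which makes kynurenine from its formyl precursor, rose by 0.76 (SE 0.17, adjusted p = 0.0103), and Wars, also in the target list, fell by 0.39 (adjusted p = 0.0474; 0.0503 in edgeR on recovered reads). The number that fell ranged from 0 to 3 when each library was left out in turn, with 0 without KO replicate 2, 3 or 4 or without WT column 3 or 4.

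Genes of most similar pattern were ranked by the root mean square difference of centred log2 values, a description over 6 tumour or 7 fat libraries. Closest to Cxcl9 in tumours were Pla2g4a (0.108), Blnk (0.111) and Rbm47 (0.127), where the own spread of Cxcl9 was 0.521. Cxcl10 was followed most closely by Rasl10a (0.0404), Il18 (0.0842) and Rgs20 (0.0869) against an own spread of 0.384. Irf1 had Csrnp2 (0.0622), Fcgr4 (0.0703) and Csf2rb2 (0.0790) against 0.328. The candidate set held 10720 genes in tumours and 11926 in fat. In fat the closest were AW112010 (0.268), Gbp8 (0.269) and Igtp (0.278) for Cxcl9, Zbp1 (0.321), H2-Oa (0.344) and Ly6c2 (0.378) for Cxcl10, and Ly6c1 (0.0943), Alox5 (0.105) and Icosl (0.106) for Irf1. The lists for Cxcl9, Cxcl10 and Irf1 named different genes in each tissue.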

How the data were processed

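RNA of E0771 tumours and visceral fat was sequenced from stranded mRNA libraries, per the labels. For tumours the authors deposited raw read counts per gene, and CASAVA, TopHat, DESeq2 and mm10 are named in the submitters' processing notes, without roles or versions. The 5 summary lines of that table, 66.7% to 72.2% of its entries per library, were left out. Their share was 66.7%, 67.0% and 68.6% in KO tumours and 70.8%, 72.2% and 69.2% in WT tumours. It was thus lower in every KO tumour than in any WT tumour, and its part in the tumour results was not tested. For fat the authors deposited a signal per gene, counts divided by a size factor: all 117220 values above 0 were whole multiples of 1 read's worth (100%, tolerance 0.001), from which reads were recovered. 0 columns were left unassigned.

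Groups came from sample titles. The quasi-likelihood test of edgeR 4.0.16 (R 4.3.3, TMM, filterByExpr) was used for tumour counts. For fat, log2(value + 1) of genes at 10 or more in 3 libraries went into limma 3.58.1 with a trend. DESeq2 1.42.0 and edgeR on recovered reads were alternatives, with other filters, scalings, pseudocounts, a replicate block and each library left out. p-values were adjusted over all tested genes at 0.05, and all tests were two-sided. The pipelines were tested on simulated data. Promoter sequences are from RefSeq (GRCm38.p6), coordinates from GENCODE M21. Replicate pairs of a group differed by a chi-square per degree of freedom of 20.5 to 196, so none was a duplicate.

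The named genes were the 9 members, the 3 of smallest p per pathway list and tissue, and the 3 most similar in pattern to Cxcl9, Cxcl10 and Irf1 (mean of at least 50, no predicted models); the result of 1 named gene is not reported here. The members and lists were chosen with earlier results of these data known.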

Additional observations from a re-analysis of the deposited data

Results flagged for a closer look

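Cxcl10 in fat labelled KO had 1 library far from the others: replicate 1 read 326 against 92.7 to 125, a gap of 0.860 of the range of the group. That is above the 95% limit of Dixon's test for 4 samples. Of the 13 groups of 4 examined, chance would single out about 1 in 20. The same library was the highest of KO fat in 8 of the 9 genes.

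For Ifngr2 the tumour effect of the host label minus the fat effect was -1.06 on the log2 scale (exact permutation p = 0.00571, unadjusted over 8 genes). The permutation assumes no effect in either tissue, so a small p-value does not by itself show that the effects differ. The tumour effect was -0.15 and the fat effect 0.92.

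For Irf1 the same difference was 0.69 (exact permutation p = 0.0486, unadjusted, with the same limit), from a tumour effect of 0.56 and a fat effect of -0.13. In 10 of the 13 fits without 1 library its p-value was above 0.05, up to 0.127.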

How the results depend on the processing

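With 3 libraries against 3 in tumours and Ifng at 0 to 10 reads in fat, depth and number limit what could be detected. Called tumour genes numbered 0 higher and 0 lower in edgeR, 47 and 12 in DESeq2, and 21 and 1 without a filter. Leaving out each library in turn gave 0 to 175 higher and 0 to 159 lower over edgeR and DESeq2 (0 to 10 and 0 to 11 in edgeR), the DESeq2 fits being chosen after seeing the data. Fat gave 1575 to 2691 higher and 1490 to 2567 lower, the fewest without WT column 3. Leave-one-out ranges of tumour log2 fold changes crossed 0 for Ido1 (-0.41 to 0.19), Socs1 (-0.40 to 0.13) and Cxcl10 (-0.44 to 0.0367), and of their level differences (-0.35 to 0.16, -0.37 to 0.13 and -0.45 to 0.10). In fat they crossed 0 for Cxcl10 (-0.56 to 0.40; -0.00237 with edgeR on recovered reads), Irf1 (-0.25 to 0.0124), Cxcl9 (-0.66 to 0.0527) and Socs1 (-0.52 to 0.0759), with the same ranges for level differences, and for the Ifng level (-0.11 to 1.43). Log2 ratio differences ranged from -0.71 to 0.14 for Cxcl9 to Cxcl10 in fat, from -0.33 to 0.00967 (tumours) and -0.0234 to 0.35 (fat) for Cxcr3 to Cd3e, and from -0.18 to 1.18 for Ifng to Cd3e in fat. Ifngr1 to Ifngr2 in fat ranged from -1.53 to -0.75, with exact p of 0.0667 to 0.1, where 6 libraries cannot go below 0.0667. Tissue differences ranged from 0.21 to 0.41 (Ifngr1), 0.55 to 0.81 (Irf1), -0.24 to 0.36 (Socs1), 1.00 to 2.41 (Ido1), 0.92 to 1.63 (Cxcl9) and -0.51 to 0.45 (Cxcl10). The cause of these shifts was not tested. DESeq2 called Cxcl9 and Irf1 in tumours and edgeR without a filter called Cxcl9. Other scalings, pseudocounts and filters, with all libraries, changed no other call or direction of the 9 genes. Same-numbered tumours did not deviate together (r = -0.22, 0.01 and -0.22). A replicate block called 0 tumour genes in either direction and gave Cxcl9 a log2 fold change of 0.97 (edgeR adjusted p = 0.501). No paired analysis was possible for fat because the WT columns carry no replicate number of the labels.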
